A study of Mus musculus with 2 samples.

Results

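The 38 genes described here encode the cytosolic and mitochondrial chaperone machinery of the mouse cell, taken by symbol from a table of 23337 genes, in which all 38 were present. They comprise 8 stress-induced heat shock genes, 4 constitutive Hsp70 and Hsp90 genes, 6 Hsp70 co-chaperones, 6 Hsp90 co-chaperones, the 8 subunits of the CCT ring, 4 mitochondrial chaperone genes and 2 heat shock factors. RNA was measured in regulatory T (Treg) cells, a CD4 T cell lineage defined by Foxp3 that holds immune responses in check, sorted from injured skeletal muscle of male mice aged 8 weeks. The mice carried a Foxp3-IRES-GFP reporter on a C57BL/6 background. In both groups the tibialis anterior, quadriceps and gastrocnemius were injured with cardiotoxin, a venom protein that destroys myofibres, and 5000 Treg cells were taken after 4 days by a repeated sort. One group received 0.3 ug of recombinant IL-33, a cytokine released by damaged tissue, into the muscle, and the other received PBS. The labels do not say whether cells of several mice were pooled.

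Chaperones of the Hsp70 family hold unfolded stretches of protein in cycles driven by ATP, with J-domain partners (the Dnaj genes) that deliver clients and nucleotide exchange factors (the Bag and Hsp110 genes) that release them. Clients such as kinases and steroid receptors pass from Hsp70 to Hsp90 through adaptor proteins, and actin and tubulin fold inside the CCT ring. When unfolded protein accumulates, heat shock factor 1, encoded by Hsf1, binds repeated heat shock elements in the promoters of the inducible genes. Activated T cells are known to express many of these genes strongly, and heat shock genes also respond to the handling of cells.

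Each group held 1 library, so no difference below has a replicate check, no test was possible, and "higher" and "lower" compare 2 libraries rather than 2 treatments. The IL-33 library held 4080791 counts and the PBS library 1573707. Levels are CPM, a gene's counts divided by its library's total and multiplied by 1000000, and paired values give the IL-33 library first and the PBS library second. Ratios are of CPM, IL-33 over PBS, with an exact 95% interval that covers counting error only. The log2 fold is taken on CPM plus a pseudocount of 1, which understates the differences of low genes, and a gene is called higher or lower where it differs by at least 2-fold on that scale. The 2 most abundant of the Treg and T cell markers listed were Ctla4, at 6186 and 6246 CPM, and Icos, at 1990 and 2031 CPM. Foxp3, which defines the lineage, had only 40 counts and 1 count (9.80 and 0.64 CPM). In bulk RNA, fewer cells of a type and less RNA per cell cannot be told apart.

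The chaperone genes took 1.26% and 1.48% of all counts. All 38 reached 5 CPM in at least 1 library, the level required for comparison. Of these, 5 did so in 1 library alone (Hspa1a, Hspa1b and Hspb1 in the PBS library, Hsf1 and Hsf2 in the IL-33 library), and a gene that passes in this way tends to differ by construction. Of the 38, 5 were lower by 2-fold or more in the IL-33 library (Hspa1a, Hspa1b, Bag3, Stip1 and Fkbp4), where 16.3% of all 9005 genes compared were lower. The heat shock factors Hsf1 and Hsf2 were higher, where 15.5% of all genes were. These shares, 13.2% and 5.26% of the members, were no larger than the shares over all genes. Among the 28 members averaging at least 50 CPM, Stip1 and Fkbp4 were lower (7.14%) against 4.96% of 3566 genes at that level, and 0 were higher against 3.53%. Of all members, 25 had a log2 fold below 0 and 13 above, with a median of -0.21, beside -0.08 over all genes compared and -0.10 over those averaging at least 50 CPM. Scaling by trimmed means of M-values (TMM) adds up to 0.12 to the log2 folds, less in thinly counted genes because of the pseudocount. Hspa1a moves from -2.60 to -2.55, but it then falls below 5 CPM, which leaves 4 members lower. Dnajb6, Hspd1 and Hspe1 change sign under TMM.

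**Figure D1:**
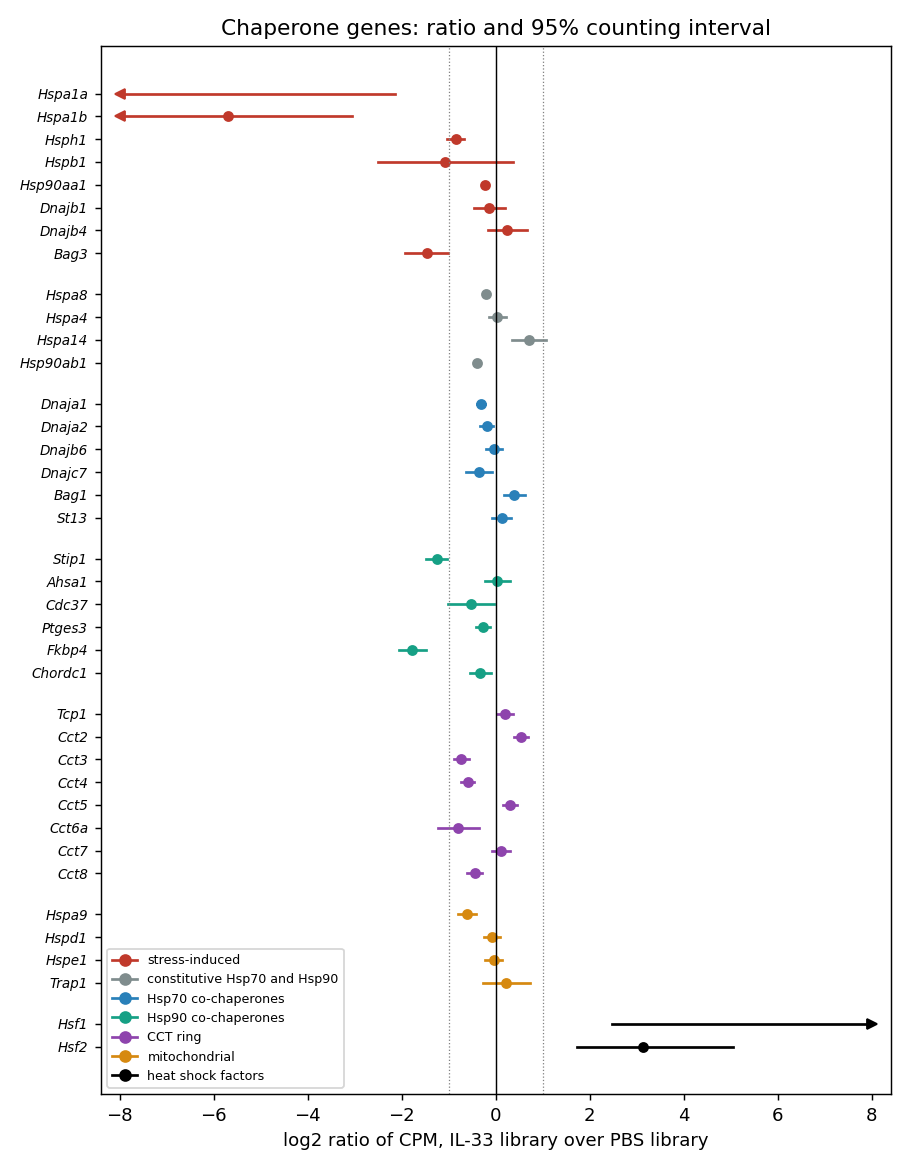
Ratio of CPM in the IL-33 library over the PBS library for each of the 38 genes, on a log2 axis, with points for the ratio, lines for the 95% counting interval, colours for the groups of genes, dotted lines at 2-fold and arrows where an interval runs off the axis; Hspa1a and Hsf1 have no point because 1 library had 0 counts. Bag3, Stip1, Fkbp4 and the Hspa1 pair lie to the left, Hsf1 and Hsf2 to the right, and the CCT subunits on both sides of 0.

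The inducible Hsp70 genes were barely detected in the IL-33 library. Hspa1a and Hspa1b encode the classical stress-induced Hsp70, and lie next to each other on chromosome 17 (GRCm38, 34969190 to 34972156 and 34956436 to 34959238, both on the minus strand). Hspa1a had 0 counts against 8, which makes it 6.92-fold lower in the IL-33 library when 3 counts are set for the 0. The exact interval gives at least 4.43-fold. Hspa1b had 1 count against 20, a ratio of 0.0193 (0.0005 to 0.121). Summed, the pair had 1 count against 28, which puts the PBS level 72.6 times the IL-33 level with an interval of 12 to 2969. Both libraries held far more of the constitutive partner: per 100 counts of Hspa8, the pair had 0.00791 and 0.499. Of genes with a mean of 2.5 to 10 CPM, the range of both copies, 31.3% were lower by 2-fold or more.

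The stretches upstream of this pair are shown because the genes are near-identical copies in promoter as well as transcript. They are the 150 bases before each RefSeq transcription start (GRCm38.p6, minus strand, written 5′ to 3′), at chr17:34972157-34972306 for Hspa1a and chr17:34959239-34959388 for Hspa1b. Capitals mark the fixed letters of a heat shock word made of 2 inverted units, GAANNTTC or TTCNNGAA.
Hspa1a: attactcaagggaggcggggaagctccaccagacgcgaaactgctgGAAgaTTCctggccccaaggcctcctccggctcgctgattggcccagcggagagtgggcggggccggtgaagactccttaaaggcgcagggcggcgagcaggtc
Hspa1b: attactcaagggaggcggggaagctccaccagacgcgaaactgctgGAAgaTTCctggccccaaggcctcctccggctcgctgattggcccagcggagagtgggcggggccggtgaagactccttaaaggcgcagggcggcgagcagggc
Of these 150 bases, 149 were the same, and over 250 bases upstream 247 were (98.8%). The word began 104 bases before the start site in both. Of the 25-base words in the Hspa1a transcript, 71.2% also occur in a transcript of another gene, most of them in Hspa1b, and 70.2% of those in Hspa1b. The reads were 25 bases long and paired, and how reads matching several places were counted is not given in the sources used here, so the split between the copies is uncertain and either may have lost reads.

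The other stress-induced genes did not move together. Hsph1, which encodes the Hsp110 exchange factor (chromosome 5, 149614287 to 149636376), stood at 149.7 and 269 CPM, giving a ratio of 0.557 (0.491 to 0.632) on 611 and 423 counts. Bag3, an exchange factor that links Hsp70 to autophagy (chromosome 7, 128523616 to 128546981), stood at 19.4 and 53.4 CPM, giving a ratio of 0.363 (0.263 to 0.499), and 19.5% of genes with a mean of 10 to 50 CPM were lower by 2-fold or more. Both have transcripts with almost no sequence in common with other genes (0.132% and 0% of 25-base words). At the other end, the J-domain gene Dnajb1, a standard heat shock reporter, was at 63.2 and 69.3 CPM, giving a ratio of 0.913 (0.727 to 1.15). The related Dnajb4 was at 51.2 and 43.2 CPM, giving a ratio of 1.19 (0.898 to 1.58). Neither interval left out equality. Hsp90aa1, the inducible cytosolic Hsp90 and the gene of the list with the most counts, was at 1503 and 1752 CPM, giving a ratio of 0.858 (0.820 to 0.898). The small heat shock protein gene Hspb1 had 11 and 9 counts, a ratio of 0.471 (0.178 to 1.29) that was within counting error.

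Across the 8 stress-induced genes, 3 were lower by 2-fold or more, 0 were higher and 7 had a log2 fold below 0, beside 16.3%, 15.5% and 54.4% of all genes compared. Of the 3 lower genes, Hspa1a and Hspa1b reached 5 CPM in the PBS library alone. The median log2 fold was -0.85, a value between Hsph1 at -0.84 and the thinly counted Hspb1 at -0.86. Over the 5 members that averaged at least 20 CPM (Hsph1, Hsp90aa1, Dnajb1, Dnajb4 and Bag3) it was -0.22, and the 3 members this leaves out are those with the fewest counts.

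**Figure D2:**
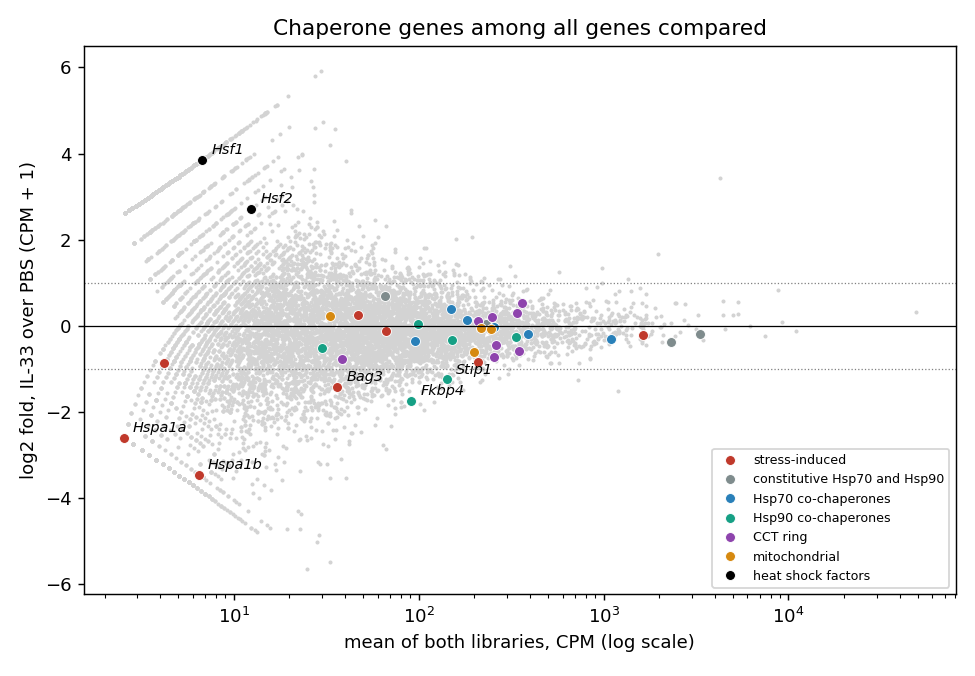
Log2 fold of IL-33 over PBS (CPM plus 1) against the mean CPM of both libraries on a log axis, for the 9005 genes compared (grey) and the 38 chaperone genes (coloured by group, named where they differed by 2-fold or more), with dotted lines at 2-fold. Hspa1a, Hspa1b, Hsf1 and Hsf2 lie in the thinly counted range where grey points also spread widely, while Stip1 and Fkbp4 lie near the lower edge of the grey points at their level.

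Both heat shock factor genes were detected mainly in the IL-33 library and passed 5 CPM through it alone, so a difference in this direction is partly set by construction. Hsf1, the main activator of the heat shock response (chromosome 15, 76477422 to 76501913), had 55 counts (13.5 CPM) against 0. It was 7.07-fold higher with 3 counts set for the 0, and at least 5.56-fold by the exact interval. Hsf2, a related factor that can join Hsf1 in mixed trimers (chromosome 10, 57486385 to 57513135), had 91 counts (22.3 CPM) against 4 (2.54 CPM), a ratio of 8.77 (3.31 to 32.9). Such differences were common in thinly counted genes: 37.2% of 1928 genes with a mean of 2.5 to 10 CPM, the range of Hsf1, and 15.8% of 3511 genes with a mean of 10 to 50 CPM, the range of Hsf2, were higher by 2-fold or more. The activity of Hsf1 is set by its protein state, which RNA does not measure.

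Among the Hsp90 co-chaperones, Fkbp4 and Stip1 differed most. Fkbp4, which encodes the immunophilin FKBP52 that serves steroid receptors (chromosome 6, 128429735 to 128438677), was at 41.4 and 141 CPM. On 169 and 222 counts this was a ratio of 0.294 (0.239 to 0.360). Stip1, which encodes the HOP adaptor that bridges Hsp70 and Hsp90 (chromosome 19, 7020702 to 7039967), was at 83.8 and 200.2 CPM, giving a ratio of 0.419 (0.358 to 0.490). Neither interval came near equality, and 6.48% of 2576 genes with a mean of 50 to 200 CPM were lower by 2-fold or more. Set against Hsp90aa1 and Hsp90ab1 within each library, Fkbp4 had 1.18 and 3.23 counts per 100, and Stip1 had 2.39 and 4.58 (pairs chosen after their values were seen).

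The other Hsp90 partners lay closer to equality. Cdc37, the kinase-specific adaptor, was at 24.8 and 35.6 CPM, giving a ratio of 0.695 (0.497 to 0.982). Chordc1, a CHORD-domain partner induced by heat, had a ratio of 0.799 (0.689 to 0.929), and Ptges3, which encodes the p23 protein that stabilises closed Hsp90, had 0.828 (0.750 to 0.915). Ahsa1, the activator of the Hsp90 ATPase, was at 101 and 98.5 CPM, giving a ratio of 1.02 (0.850 to 1.24). The list of 6 therefore held 2 lower members and 0 higher, beside 16.3% and 15.5% of all genes, and a median log2 fold of -0.41.

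Genes that work on Hsp70 in unstressed cells varied little. Dnaja1, the J-domain member with the most counts, was at 977 and 1211 CPM, giving a ratio of 0.807 (0.764 to 0.853). Dnaja2 stood at 0.877 (0.800 to 0.964), Dnajb6, which restrains aggregation, at 0.980 (0.873 to 1.10), and Dnajc7, which binds both Hsp70 and Hsp90, at 0.785 (0.651 to 0.950). Bag1, an exchange factor with a ubiquitin-like domain, was the member of this list with the highest ratio, 1.32 (1.13 to 1.55), at 169 and 128 CPM. St13, which encodes the Hip protein that slows nucleotide release, was at 1.09 (0.951 to 1.26). All 6 were within 2-fold, with a median log2 fold of -0.11 that became 0.01 under TMM scaling.

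The constitutive Hspa8 and Hsp90ab1 had more counts than any other member. Hspa8, which encodes Hsc70, was at 3097 and 3563 CPM, giving a ratio of 0.869 (0.842 to 0.897). Hsp90ab1, the constitutive cytosolic Hsp90, was at 2000.1 and 2615 CPM, giving a ratio of 0.765 (0.737 to 0.794). Hspa4, an Hsp110 relative, was at 234 and 227 CPM, and Hspa14, a ribosome-linked Hsp70, at 81.6 and 50.2 CPM, giving a ratio of 1.63 (1.27 to 2.10). The inducible and constitutive Hsp90 genes kept a similar balance: per 100 counts of Hsp90ab1 there were 75.2 and 67.0 of Hsp90aa1, a ratio of 1.12 (1.06 to 1.19) between libraries. Hspa8 shares 81.3% of its 25-base words with other genes, 9 of them pseudogenes that each hold 10% or more, and Hsp90aa1 shares 65.0%, so their levels depend on how such reads were assigned.

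**Figure D3:**
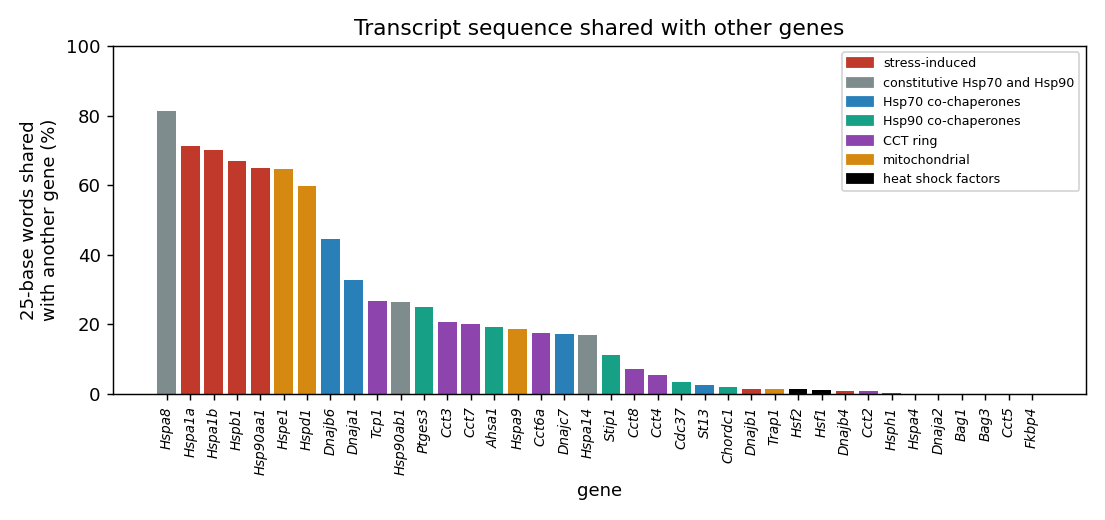
Share of each gene's 25-base words, in percent, that also occur in a transcript of another gene, with genes in descending order and colours for the groups. Hspa8 is highest at 81.3%, 7 genes reach 50% or more, and Bag3, Fkbp4, Bag1 and Cct5 share 0%.

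The CCT ring, built from 8 different subunits in fixed proportion, did not differ as 1 block. Cct2 was at 429 and 296 CPM, giving a ratio of 1.45 (1.31 to 1.61). Cct5 followed at 1.23 (1.11 to 1.37), Tcp1, which encodes the alpha subunit, at 1.15 (1.02 to 1.30) and Cct7 at 1.08 (0.951 to 1.23). On the other side, Cct3 was at 193 and 320 CPM, giving a ratio of 0.603 (0.538 to 0.675). Cct4 stood at 0.662 (0.601 to 0.730), Cct8 at 0.734 (0.656 to 0.822) and Cct6a, the least abundant, at 0.576 (0.428 to 0.779). The subunits thus split evenly, 4 above and 4 below 0 on the log2 scale, all within 2-fold, with a median of -0.17. Summed over the ring, the ratio was 0.946 (0.909 to 0.985), nearer to equality than that of any single subunit. Within a library, Cct2 had 2.23 and 0.926 counts for each count of Cct3 (a pair chosen after its values were seen). The SD of the log2 fold over the 8 subunits was 0.52. It was 0.42 over the 990 genes at a mean of at least 200 CPM, the range of every subunit but Cct6a. Over the 3511 genes between 10 and 50 CPM, the range of Cct6a, it was 1.29. The spread over the ring was thus somewhat larger than across genes at the level of most subunits.

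Per kilobase of annotated transcript, Cct2 was the highest subunit in the IL-33 library at 219 CPM per kb, followed by Cct5 at 203. In the PBS library Cct4 led at 169, with Cct5 at 165, Cct3 at 162 and Cct2 at 151. Leaving out Cct6a, the highest and lowest subunits differed 2.45 and 2.04 times. Cct6a stood apart at 11.5 and 19.9 CPM per kb. Of its 25-base words 17.6% also occur in another gene, Psph, and the part of this sharing in its level was not tested.

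**Figure D4:**
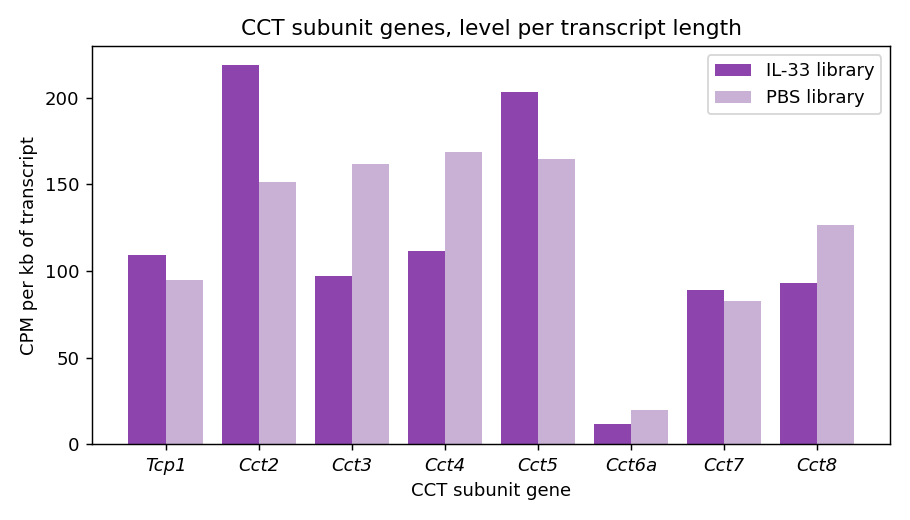
Level of each CCT subunit gene in CPM per kb of transcript, in the IL-33 library (dark bars) and the PBS library (light bars). Cct2 and Cct5 are highest in the IL-33 library, Cct3, Cct4 and Cct8 are higher in the PBS library, and Cct6a is low in both at 11.5 and 19.9.

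Mitochondrial chaperones showed 1 close pair. Hspd1 and Hspe1, which encode the Hsp60 barrel and its Hsp10 lid, lie head to head on chromosome 1 (55077835 to 55088243 on the minus strand, 55088132 to 55091307 on the plus strand). Hspd1 was at 239 and 253 CPM, giving a ratio of 0.944 (0.839 to 1.06), and Hspe1 at 213 and 220 CPM, giving a ratio of 0.970 (0.855 to 1.10). The count ratio of Hspe1 to Hspd1 was 0.893 and 0.869, and the 2 ratios differed by 1.03 times (0.863 to 1.22). Both share much of their sequence with other genes (59.6% and 64.5% of words). Hspa9, the mitochondrial Hsp70 that drives protein import, was at 159 and 241 CPM, giving a ratio of 0.657 (0.578 to 0.747). Trap1, the mitochondrial Hsp90, was at 35.5 and 30.5 CPM, within counting error at 1.16 (0.835 to 1.65).

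By the median, the contrast between the inducible genes and the rest depended on the thinly counted genes, while summed counts rest on the well-counted ones. The median log2 fold of the stress-induced list was 0.56 below that of the CCT subunits and co-chaperones together (-0.85 against -0.29, difference -0.56). Among members averaging at least 20 CPM the difference was 0.07, in the opposite direction. The median of the well-counted inducible genes thus did not lie below that of the CCT and co-chaperone genes. Without Hspa1a and Hspa1b, an alternative chosen after seeing the data, it was -0.24. In summed counts, the stress-induced genes had 0.890 and 1.04 counts for each CCT count, a ratio of 0.856 (0.808 to 0.907). To these sums Hspa1a, Hspa1b and Hspb1 added only 0, 1 and 11 counts with IL-33 and 8, 20 and 9 with PBS. Without Hsp90aa1 the counts for each CCT count were 0.142 and 0.215, a ratio of 0.661 (0.597 to 0.732). Hsph1, at a ratio of 0.557, supplied 611 of the 1169 stress-induced counts then left with IL-33 and 423 of the 721 with PBS. The ratio of Bag3 was 0.363, and those of Dnajb1 and Dnajb4 were 0.913 and 1.19.

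Immediate early genes and fibroblast markers were lower in sum in the IL-33 library, as were thinly counted myeloid, muscle and neutrophil markers, while markers of B cells and of NK and CD8 cells were not. Their part in the differences above was not tested. Of 18 immediate early genes, which respond to cell handling within minutes, 14 had a log2 fold below 0, where 54.4% of all genes compared did, with a median of -0.33 and a summed level of 3971 and 4963 CPM. Of the 16 that could be compared, 4 were lower by 2-fold or more and 0 were higher, beside 16.3% and 15.5% of all genes. The 4 were Jun at 0.344 (0.244 to 0.486), Ier2 at 0.444 (0.360 to 0.549), Klf2 at 0.449 (0.387 to 0.521) and Ier5 at 0.493 (0.444 to 0.547). Those with the most counts, Klf6 (1023 and 1181 CPM) and Fos (622 and 711 CPM), were within 2-fold. Of 8 fibroblast and endothelial markers, 6 were at 0 with IL-33 and 3 with PBS, and the summed level was 49.3 and 118 CPM. Col3a1 had 0 counts against 78, Col1a1 and Col1a2 were at 0 in both, and Pecam1 stood at 48.5 and 45.1 CPM. Muscle fibre and satellite cell markers, which include cells rich in small heat shock proteins, summed to 4.66 and 10.2 CPM, with 9 of 14 at 0 in both libraries, including Pax7, Des and Ckm, and the most abundant, Mylpf, at 17 and 12 counts and Acta1 at 1 and 2. Monocyte, macrophage and dendritic markers summed to 47.5 and 69.3 CPM over the 12 of 13 found in the table, led by Lyz2 (19.1 and 38.8 CPM) and Itgam (16.2 and 7.63 CPM), with Cd68 and Flt3 at 0 in both. B cell markers summed to 32.3 and 26.7 CPM, nearly all from Cd79b. Markers of NK and CD8 cells summed to 22.3 and 15.9 CPM, with Cd8b1 at 88 and 21 counts, Prf1 at 2 and 4, and Cd8a and Ncr1 at 0 in both. Neutrophil markers came from Cxcr2 alone (14.2 and 26.7 CPM), with S100a8 at 0 in both.

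Heat shock words were searched in the RefSeq promoters of GRCm38.p6, from 250 bases before to 50 after each start, which covered 31 of the 38 genes. Hsp90aa1, Hspa8, Hsp90ab1, St13, Cct4, Hspa9 and Hsf1 had no entry. The longer word has 3 inverted units, GAANNTTCNNGAA or on the other strand TTCNNGAANNTTC, and contains the shorter word, GAANNTTC or TTCNNGAA, each of which reads the same on both strands. The longer word occurred in 5 of the 31 genes (16.1%) and in 0.662% of all 27025 genes. The shorter word occurred in 16 of 31 (51.6%) and in 17.0% of all genes, with 6 of 7 stress-induced genes, 3 of 7 CCT genes and 3 of 6 Hsp90 co-chaperones. The stretches below, each 30 bases on the gene's own strand with the fixed letters in capitals, are the longer words and the word of Fkbp4, and are shown so that they can be read beside the ratios.
Hsph1: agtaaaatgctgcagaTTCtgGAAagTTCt
Chordc1: accgGAAcgTTCggGAAaaTTCctGAAgca
Hspe1: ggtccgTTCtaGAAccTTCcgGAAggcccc
Dnajb6: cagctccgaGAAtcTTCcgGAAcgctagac
Fkbp4: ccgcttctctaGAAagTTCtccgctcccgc
They lie at chr5:149636287-149636316 (minus strand), chr9:18292259-18292288, chr1:55088053-55088082, chr5:29735843-29735872 (plus strand) and chr6:128438789-128438818 (minus strand). The Hspe1 stretch is also the one found upstream of Hspd1, which is read from the other strand. The Hsph1 stretch lies 21 to 50 bases after the start site, that of Chordc1 spans it, and those of Hspe1 and Dnajb6 lie before it. The 5 genes with the longer word, Hsph1, Chordc1, Hspe1, Hspd1 and Dnajb6, had ratios of 0.557, 0.799, 0.970, 0.944 and 0.980. The part of the words in these ratios was not tested. Of the 5 genes lower by 2-fold or more, Hspa1a, Hspa1b, Bag3 and Fkbp4 held the shorter word and Stip1 held neither in this window. A match is a run of letters, and binding of the factor was not measured.

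Further chaperone genes were taken from lists of partners. Prefoldin, which hands actin and tubulin chains to CCT, and other CCT and tubulin-folding partners had a median log2 fold above 0: of 13 genes in the table, 8 had a log2 fold above 0, 12 could be compared, 5 were higher by 2-fold or more and 0 were lower, beside 15.5% and 16.3% of all genes, and the median was 0.54, beside -0.17 for the CCT subunits. One of the 5, Pfdn1, with 97 counts against 2, reached 5 CPM in the IL-33 library alone. Pdcl3, a phosducin-like partner of CCT, was at 70.1 and 20.3 CPM, giving a ratio of 3.45 (2.39 to 5.13), and the prefoldin subunit gene Pfdn5 at 459 and 205 CPM, giving a ratio of 2.24 (1.99 to 2.53). The tubulin cofactors Tbcd, at 0.503 (0.386 to 0.657), and Tbca, at 0.860 (0.768 to 0.965), were the lowest of those averaging at least 20 CPM. These transcripts were short, with a median length of 1595 bases against 2418 for the CCT genes. Among all genes averaging at least 50 CPM, the median log2 fold was 0.09 for the shortest of 5 length classes and -0.18 for the longest, and the part of length in the prefoldin values was not tested.

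Of 30 other Hsp70 partners, 27 could be compared, with 4 higher, 2 lower and a median of -0.11 (0.00 under TMM scaling). Over all genes compared, 15.5% were higher and 16.3% lower. All 4 higher genes (Hspa2, Dnajc24, Dnajc16 and Hspbp1) had 0 counts in the PBS library and passed through the IL-33 library alone, so their count is no result about the list. The 2 lower genes were Bag5, at 8.09 and 47.7 CPM, giving a ratio of 0.170 (0.109 to 0.259), and the mitochondrial J-domain gene Dnaja3, at 12.5 and 54.0 CPM, giving a ratio of 0.231 (0.160 to 0.331). The highest well-counted members, Hspa4l at 1.63 (1.12 to 2.43) and Dnajc11 at 1.30 (0.908 to 1.90), were within 2-fold. Of 19 other Hsp90 partners, 17 could be compared, with 3 higher, 2 lower and a median of -0.03 (0.04 under TMM scaling). These counts stand beside the same 15.5% and 16.3% of all genes. Ahsa2, a relative of Ahsa1, was higher at 2.09 (1.54 to 2.87), Tomm34 stood at 1.47 (1.21 to 1.79), Ruvbl1 was lower at 0.447 (0.320 to 0.626) and Pih1d1 stood at 0.514 (0.344 to 0.774). The last 2 encode parts of the complex that works with Hsp90 in assembling large nuclear machines.

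Genes around the heat shock factors and protein turnover had a median of -0.18 over 11 genes. Of these, 9 were compared, with 0 higher and 1 lower, beside 15.5% and 16.3% of all genes. The lower gene, Serpinh1, reached 5 CPM in the PBS library alone. Vcp, which extracts ubiquitylated proteins, stood at 1.17 (0.998 to 1.38). Hsbp1, which encodes a binding partner of Hsf1, was at 146 and 211 CPM, giving a ratio of 0.690 (0.602 to 0.792), and the mitochondrial protease gene Lonp1 at 0.507 (0.367 to 0.702). Small heat shock protein genes other than Hspb1 were almost absent: 5 of 8, including Cryab and Hspb8, had 0 counts in both libraries, and 2 reached 5 CPM.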

How the data were processed

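RNA-seq of 2 libraries of sorted muscle Treg cells was analysed, 1 per treatment. Per the labels' protocols, poly(A) RNA was converted to cDNA, amplified, fragmented with a transposon and sequenced as paired 25-base reads. Molecular identifiers are not named, so PCR copies cannot be told from separate molecules, and intervals and floors cover counting error only. The authors deposited raw counts per gene symbol. Per the submitters' processing notes, TopHat2 2.0.10, Cufflinks 2.2.1 and mm10 were used. For the counting program, annotation, strand and reads matching several places, the method was not given in the sources used here.

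CPM were computed from library totals, in which 1 count equals 0.245 CPM (IL-33) and 0.635 CPM (PBS), and a count of 0 allows up to 3 counts, 0.735 and 1.91 CPM. Genes with 5 CPM in at least 1 library were compared. Ratios carry the exact conditional (Clopper-Pearson) 95% interval. No test was run, since each group is 1 library. The members and lists were chosen with earlier results of these data known. Every member is reported. Of each partner list the 2 highest and 2 lowest genes averaging at least 20 CPM are named, and of each marker list the 2 most abundant. Some genes picked this way are left out of the text. Any other gene was chosen after its values were seen.

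Positions and transcript lengths (the longest APPRIS principal transcript) and 25-base words came from GENCODE M21 on GRCm38, the assembly mm10 names. Promoters came from RefSeq. Alternatives were TMM scaling (edgeR 4.0.16), DESeq2 1.42.0 size factors, other pseudocounts, floors, thresholds and list members. Python 3.11.15, numpy 2.4.6, pandas 2.3.3, scipy 1.17.1, matplotlib 3.10.9 and R 4.3.3 were used, and the computation was tested on simulated data.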

Additional observations from a re-analysis of the deposited data

How the results depend on the processing

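No paired analysis was possible because each group held 1 library. TMM and DESeq2 scaling, which add up to 0.12 and 0.11 to the log2 folds, and pseudocounts of 0.5 and 5 CPM kept the counts of 2-fold members within 1.5 times of those reported and the signs of the stress-induced, CCT and combined co-chaperone medians. With either scaling 4 members were lower instead of 5, because Hspa1a, at 5.08 CPM in the PBS library by its total, then fell below 5 CPM. Under TMM the medians of the constitutive (0.04), Hsp70 co-chaperone (0.01) and mitochondrial (0.06) lists turned positive, so these have no settled direction. At a floor of 20 CPM, 4 members differed by 2-fold or more (1 higher, 3 lower), and at a threshold of 1.5-fold 14 did (11 lower). Leaving out the 7 members that share 50% or more of their words, added after seeing the data, left 3 lower. The stress-induced median was -0.22 among members averaging at least 20 CPM and -0.26 for a wider list of inducible genes, and its difference from CCT and co-chaperones was 0.07 and -0.034. The ratio of summed stress-induced to CCT counts was 0.661 without Hsp90aa1. Apart from fewer members compared, the cause was not tested. Depth limits Hspa1a, Hspa1b, Hspb1, Hsf1 and Hsf2, each with 20 counts or fewer in the PBS library.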

Other observations

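Several chaperone genes outside the 38 were detected in 1 library alone, and they were chosen after their values were seen. Each passed 5 CPM only through the library where it was higher, and such a gene tends to differ by construction. Of genes with a mean of 2.5 to 10 CPM, the range of Dnajc16, Hspbp1, Hspb6 and Serpinh1, 37.2% were higher by 2-fold or more and 31.3% lower. Of genes with a mean of 10 to 50 CPM, the range of Hspa2 and Dnajc24, 15.8% were higher and 19.5% lower. Hspa2, an Hsp70 gene best known from the testis, had 89 counts against 0 in the PBS library. It was 11.4-fold higher with 3 counts set for the 0, and at least 9.11-fold by the exact interval. Dnajc24, a J-domain gene of diphthamide synthesis, had 90 counts against 0, 11.6-fold higher in the same way (at least 9.22-fold by the interval). Dnajc16 (33 against 0), Hspbp1 (27 against 0), an exchange factor for Hsp70, and the small heat shock protein gene Hspb6 (26 against 0) followed. They were 4.24-fold, 3.47-fold and 3.34-fold higher, and at least 3.26-fold, 2.63-fold and 2.53-fold by the interval. In the other direction, Serpinh1, the collagen chaperone Hsp47 of the endoplasmic reticulum, had 0 counts against 12. It was 10.4-fold lower with 3 counts set for the 0, and its exact interval reaches a ratio of 0.139. Of the fibroblast markers, Dcn had 0 counts against 24 and Col3a1 0 against 78, while Col1a1 and Col1a2 were at 0 in both libraries, and their part in the value of Serpinh1 was not tested.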
